A study of Mus musculus with 4 samples.

Results

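Skeletal muscle lineage cells were a small population of the embryonic mouse nose, 89 of 13739 retained cells (0.648%). They were chosen by the transcripts detected in each cell. UMIs, the molecular tags by which captured transcripts were counted, are the unit throughout. Cells were retained if 500 or more genes were detected and mitochondrial transcripts made up no more than 10% of their UMIs. A retained cell was a muscle lineage cell if it held at least 1 UMI of 1 or more of the 4 transcription factors Myod1, Myog, Pax7 and Myf5, and at least 3 of 9 genes in all, the others being Ttn, Actc1, Tnnt1, Myl1 and Tnnc2. The levels of these 9 genes, and the contrast of these cells with the rest of the nose, are therefore given as a description, with no test.

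The whole nose was taken from mouse embryos at day 14.5 of gestation, dissociated and profiled by droplet single-cell RNA sequencing. The libraries were 2 control libraries, titled WT, and 2 mutant libraries, titled as conditional knockouts of Yap and Taz by Sox10Cre. The labels give the control genotype as C57Bl/6J, whereas the series design gives yap flox/flox with taz flox/flox and no Cre. The mutants are labelled Tg(Sox10-cre)1Wdr with Yapflox and Tazflox on C57Bl/6J, and the design gives Sox10cre with 1 wild-type and 1 floxed yap allele and both taz alleles floxed. Which description of the controls is right was not settled, so by the design both groups share floxed taz and yap alleles and by the labels they share only the strain. Sox10-driven Cre acts in the neural crest and its derivatives, which include nasal mesenchyme and glia but not skeletal muscle fibres themselves. The replicate number separates libraries, and the labels do not say that each library was 1 embryo, so p-values measure the spread between these libraries. Values in series below are in the order control 1, control 2, mutant 1 and mutant 2.

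Skeletal muscle forms from progenitors that carry the paired-box factor Pax7 and the early myogenic factor Myf5. These cells divide, commit under Myod1, leave the cell cycle as Myog (myogenin) comes on, and fuse into multinucleated fibres that fill with sarcomeres. Muscles of the head arise from cranial mesoderm, use factors such as Tbx1, Msc (MyoR) and Tcf21, and unlike trunk muscle do not depend on Pax3. Connective tissue around head muscles comes largely from the neural crest. YAP and TAZ (gene Wwtr1) are coactivators held in the cytoplasm by the Hippo kinases, and they act in the nucleus through TEAD factors.

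Promoter sequences are shown for 3 genes that were higher in Myog-positive than in Myog-negative cells in every library, as described further on, because MyoD and myogenin bind E-boxes. The windows are the 250 bases before the RefSeq transcript start on GRCm38.p6, written 5′ to 3′ on the gene's strand. Capitals mark the E-box core CAGCTG, which reads the same on both strands. All 3 windows shown hold it, whereas that of Myl4 and a window of Tnnt2, which also rose, held 0 matches.
Chrna1: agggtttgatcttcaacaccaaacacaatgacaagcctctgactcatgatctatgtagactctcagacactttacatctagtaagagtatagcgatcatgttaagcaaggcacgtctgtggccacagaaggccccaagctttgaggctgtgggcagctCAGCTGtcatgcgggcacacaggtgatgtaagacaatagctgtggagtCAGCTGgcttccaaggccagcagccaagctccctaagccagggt
Mylpf: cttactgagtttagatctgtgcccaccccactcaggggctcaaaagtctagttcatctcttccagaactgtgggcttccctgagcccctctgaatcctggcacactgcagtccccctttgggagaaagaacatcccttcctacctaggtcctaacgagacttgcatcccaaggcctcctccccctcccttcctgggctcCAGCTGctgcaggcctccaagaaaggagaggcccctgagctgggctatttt
Tnni1: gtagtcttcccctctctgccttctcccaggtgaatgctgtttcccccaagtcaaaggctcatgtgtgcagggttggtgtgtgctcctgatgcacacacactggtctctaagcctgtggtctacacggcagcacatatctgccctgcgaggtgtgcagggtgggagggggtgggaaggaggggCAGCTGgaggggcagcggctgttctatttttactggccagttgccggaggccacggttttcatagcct

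The Chrna1 window (chr2:73580339-73580588, minus strand) held 2 matches, the first bases of which lie at -92 and -44 from the transcript start. The Mylpf window (chr7:127211358-127211607, plus strand) held 1 match at -51, and the Tnni1 window (chr1:135799171-135799420, plus strand) held 1 match at -68. In all, 13.0% of 32817 RefSeq windows of this length held CAGCTG. Of the genes tested between the states of the muscle cells, 2104 of 2643 were matched to a window, and 10.1% of those held it. The window held the letters in 10 of 44 matched genes that were higher in Myog-positive cells and in 1 of 11 matched genes that were lower. The MEF2 core CTAAAAATA, searched on both strands, was in 0.469% of all windows and in 0 of the 44. Only these exact letters were searched, so other forms of E-box and MEF2 site were not counted. The Myog promoter window held neither exact string. A match describes the letters in the window and does not show binding.

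The 4 libraries held between 2474 and 4195 retained cells, with median depths between 5282 and 8549 UMIs per cell. Muscle lineage cells were deeper than the rest, with medians of 16202.5, 16076, 19294 and 14270.5 UMIs, and 1 of them, in mutant 1, held only 1037. Libraries shared 3 to 5 cell barcodes pairwise. Doublets were kept, as the rule does not remove them, and 2, 2, 0 and 4 of the muscle lineage cells were among the highest doublet scores of their libraries. At least 3 markers of another cell type than mesenchyme were held by 2 cells of control 2 and 2 of mutant 2, and 1 of these, in mutant 2, held endothelial markers. A further 0, 0, 3 and 1 barcodes met the gene rule but were dropped for mitochondrial content or few genes.

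Detection of the 9 genes follows from the rule and describes the cells without testing their label. All but 1 of the 89 cells held Tnnt1, the slow troponin T, 80 held Ttn (titin) and 74 held Actc1 (cardiac alpha-actin, which embryonic skeletal muscle also uses). Myod1 was detected in 65 cells, Pax7 in 45, Myog in 41 and Myf5 in 41. The fast fibre genes Myl1 and Tnnc2 were rarer, in 21 and 9 cells. The label was checked on genes outside the rule, of which the muscle intermediate filament Des (desmin) was detected in 82 of the 89.

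Few cells of other kinds came near the rule. At its edge, 11 cells held exactly 3 of the 9 genes, 36 cells with a factor held exactly 2, and 672 held only 1. Des was detected in 9 of the 11 cells just inside and in 3 of the 36 just outside. The mesenchymal marker list summed to 458 CPM (UMIs of a gene or list per 1000000 UMIs summed over the cells) inside and 3305 CPM outside. Another 3 cells, all in control 1, held 3 or more of the genes and no factor. No macrophage marker-bearing cell met the rule, in 67, 60, 42 and 85 such cells, which allows shares of up to 4.48%, 5.00%, 7.14% and 3.53%. Among the factors, Myf5 and Myod1 were at 0 in those cells, Myog was in 1 cell of mutant 1 and 2 of mutant 2, and Pax7 in 1 of mutant 2. Their median depths were 9862, 8540.5, 10041 and 7750 UMIs, and Tnnt1 was detected in 10 of 67, 12 of 60, 7 of 42 and 9 of 85 of them. Pax7 is less particular to muscle in the nose, and 5.73%, 4.21%, 5.56% and 7.97% of keratinocyte marker-bearing cells held it. Intervals and limits cover counting error only.

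Beyond the 9 genes, the muscle cells were set apart from the rest of the nose by a recognisable muscle programme. Among genes detected in at least 20% of the muscle cells of every library, the 15 with the largest ratio of level to the other cells (CPM plus 1, averaged on the log2 scale) were, in order, Mylpf, Msc, Neb, Fitm1, Myl4, Des, Chrna1, Arpp21, Mrln, Pitx3, Tnni2, Trim55, Fgfr4, Cdh15 and Actn2. Mylpf, a fast regulatory light chain, led with a mean ratio of 192, and Actn2, the Z-disc alpha-actinin, closed the series with 25.2. Msc, a repressor that marks pharyngeal and other early myoblasts, stood at 325, 249, 154 and 241 CPM in muscle cells and between 0.188 and 0.833 CPM in other cells. Pitx3, a homeobox factor of differentiating myoblasts, stood at 45.3, 48.5, 48.9 and 44.9 CPM and was nearly even across libraries. Fgfr4, a growth factor receptor of muscle progenitors, stood at 108, 111, 79.0 and 57.8 CPM and was lower in both mutant libraries (log2 change -0.74 ± 0.33 SE, edgeR adjusted p 1.00).

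Head muscle genes were present and Pax3 was nearly absent. Isl1 was detected in 46 of 89 cells, Tbx1 in 32 and Tcf21 in 14. Pax3 was detected in 4 cells and summed to 0, 2.02, 0 and 16.0 CPM, below the 91.7 to 161 CPM of the other cells of the nose. Markers of other types were low: the keratinocyte, endothelial and macrophage lists summed to at most 212 CPM in any library, and that value was the endothelial list in mutant 2, where the other libraries held 0, 4.04 and 0 CPM. Sox10, the driver of the Cre, was at 0 UMIs in all 89 cells, and Acan, Matn1, C1qb and Ptprc were also at 0. Of the cardiac list, Myl7 and Nppa were at 0, whereas Myh6 was detected in 2 cells and Nkx2-5 in 16 of the 89. Mesenchymal genes, the most abundant in the tissue, summed to 459, 538, 203 and 761 CPM against 5556 to 7026 CPM in other cells. Their summed level was highest in mutant 2, and 15, 6, 6 and 8 cells held at least 3 mesenchymal markers. The mural and smooth muscle list was not low, at 1774, 1615, 2515 and 1226 CPM against 152 to 208 CPM in other cells. Its actin gene Acta2 alone gave 1502, 1344, 2286 and 998 CPM, which early skeletal muscle also expresses, and its pericyte gene Rgs5 was at 0, 0, 0 and 3.21 CPM. The neuronal list summed to at most 75.6 CPM, the cartilage and bone list to 57.8 and the erythroid list to 3.76. The cardiac list was low at 9.45, 10.1, 18.8 and 12.8 CPM, but above the 0.451 to 0.747 CPM of the other cells.

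**Figure D1:**
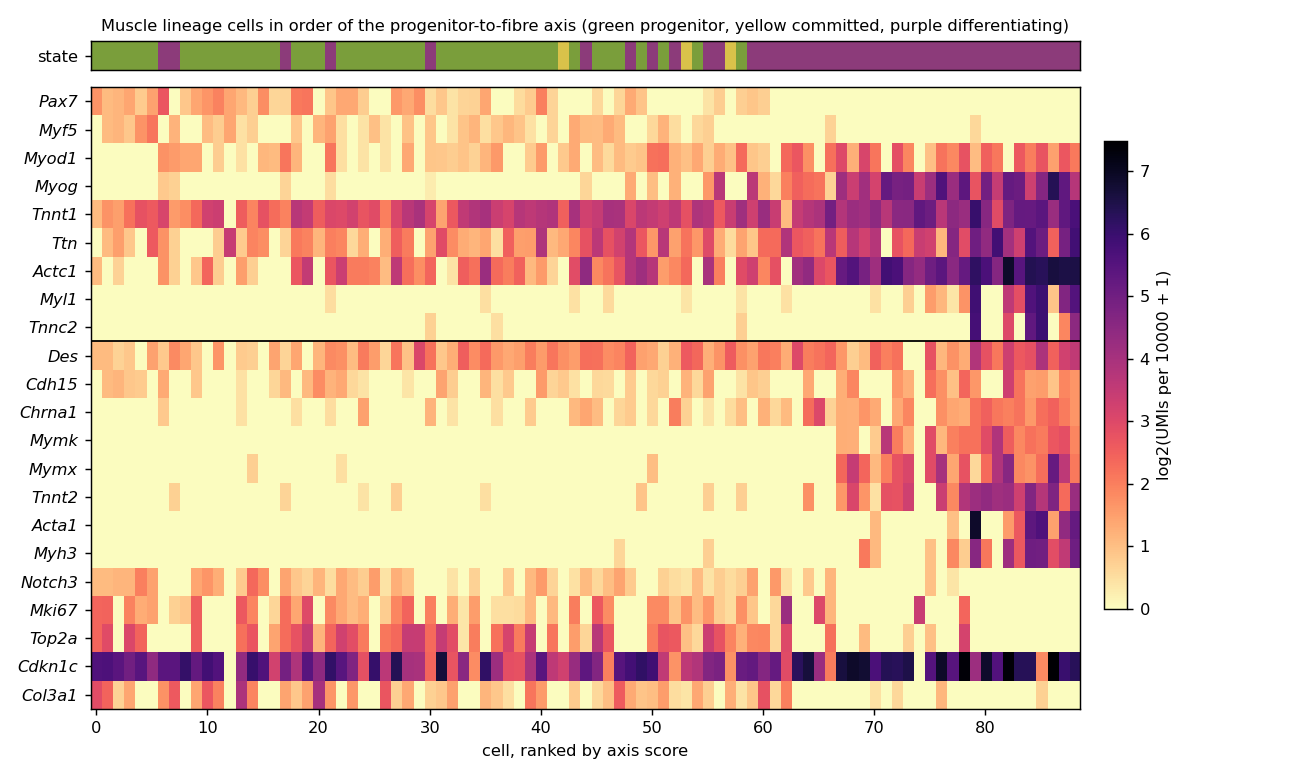
Expression of 22 genes in each of the 89 muscle lineage cells. Columns are cells ranked by an axis score, log2 of 1 plus Myog, Ttn and Tnnt1 minus log2 of 1 plus Pax7 and Myf5, each per 10000 UMIs. Colour is log2 of UMIs per 10000 plus 1, the bar above gives the state, and the horizontal line separates the 9 genes of the rule from genes it did not use. Progenitor cells lie to the left with a median score of 2.00 and differentiating cells mostly to the right with a median of 5.32, and Mymk, Acta1 and Mymx appear mainly at the right end.

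Cells were placed along the path from progenitor to fibre by their factors. Those with Myog were called differentiating (41 cells), those without Myog but with Pax7 or Myf5 progenitors (45 cells), and those with Myod1 alone committed (3 cells). Since a factor can be missed in a cell, the states describe what was detected. Of the progenitor class, 27 held Myod1 and 18 did not. Pax7 and Myf5 were detected together in 26 of the 89 cells, Pax7 alone of the pair in 19 and Myf5 alone in 15. Myog came with Myod1 in 35 of 41 cells. It overlapped with Pax7 or Myf5 in 15 cells, and 3 cells held all 4 factors. The plot of single cells shows some of these Myog-positive cells ranked among the progenitors. Scores ran from -0.60 to 3.51 in progenitors and from 0.88 to 6.92 in differentiating cells.

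The early end and the late end of the Myog-positive class differed in what they held, as a description. Mymk (Myomaker), a membrane protein required for myoblast fusion, was detected in 19 of the 26 Myog-positive cells without Pax7 and Myf5 and in 1 of the 15 with either. Mymx (Myomixer), its partner in fusion, was detected in 20 of 26 and 2 of 15. Msc was detected in 7 of 26 and 10 of 15, and in 44 of the 45 progenitors. Fusion genes were thus seen mostly in cells without a detected progenitor factor.

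The share of muscle lineage cells was lower in both mutant libraries than in both controls. The shares of retained cells were 0.736% (exact Clopper-Pearson 95% interval 0.497 to 1.05, 30 cells), 1.09% (0.720 to 1.58, 27 cells), 0.467% (0.256 to 0.783, 14 cells) and 0.429% (0.254 to 0.677, 18 cells). The means were 0.914% ± 0.251 (SD, n = 2) in controls and 0.448% ± 0.0271 (SD, n = 2) in mutants, 2.04 times as much in controls. The groups did not overlap, and the two-sided exact permutation p was 0.3333, the smallest that 2 against 2 libraries can give. The difference of -0.466 percentage points was -0.227 when every cell was thinned to 2000 UMIs and -0.288 without control 2, and it had the same sign under every alternative run. A share also depends on how many cells of other kinds were captured from whole noses, and these could not be told apart here.

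The makeup by state did not separate the groups. Progenitors were 40.0%, 59.3%, 35.7% and 66.7% of the muscle cells, so that both controls lay between the mutants. The means were 49.6% ± 13.6 (SD, n = 2) in controls and 51.2% ± 21.9 (SD, n = 2) in mutants, with an exact permutation p of 1.00. Differentiating cells were 56.7%, 37.0%, 64.3% and 27.8% (exact permutation p 1.00). Both differences changed sign without control 1 and without mutant 2. With 5 to 17 cells per library and state, exact 95% intervals were wide, from 9.69% to 53.5% for the differentiating cells of mutant 2.

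**Figure D2:**
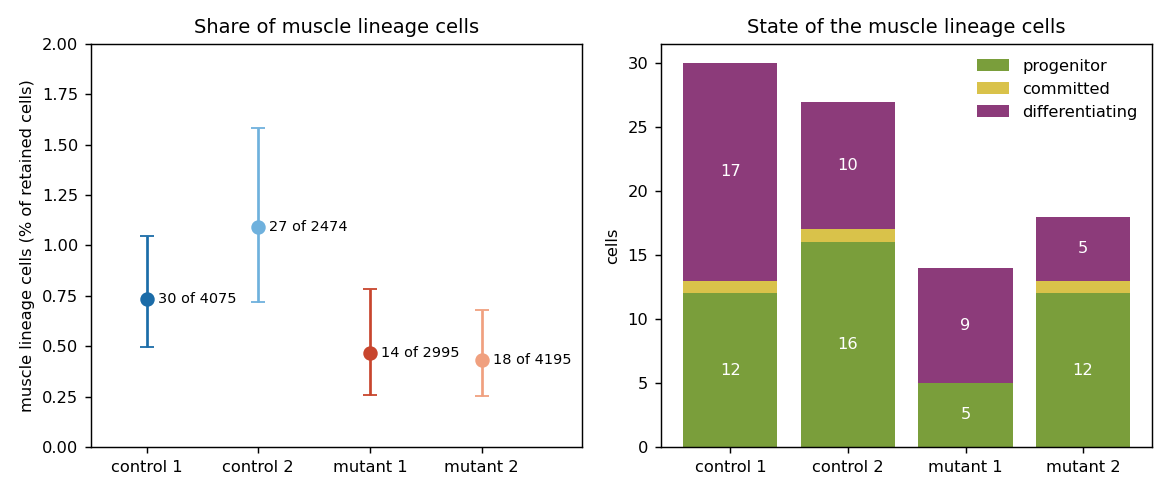
Left, muscle lineage cells as a percentage of retained cells in each library, with exact 95% binomial intervals and the cell numbers. Right, the number of muscle lineage cells in each state. Both mutant libraries, at 0.467% and 0.429%, lie below both controls, and progenitors number 12, 16, 5 and 12.

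Differentiating and progenitor cells were then compared within libraries, to ask which genes change as Myog comes on. Counts were summed per library and state and tested with edgeR, with the library as a block. Of 2643 genes tested, 76 passed an adjusted p of 0.05 (2.88%), 58 higher in differentiating cells (2.19%) and 18 lower (0.681%), and 341 had an unadjusted p under 0.05 (12.9%). Over the same genes, 8.44% were higher and 11.4% lower in all 4 libraries. Genes of the contractile apparatus and of membrane fusion were among the 10 of smallest p that rose, and Msc had the smallest p of those that fell. The count was 48 without control 1, 44 without control 2, 37 without mutant 1 and 202 without mutant 2. Of 36 named genes that passed, 18 also passed in every fit that left out a library. Progenitor sums held 844313 UMIs and differentiating sums 691360 UMIs in all, and median depths per cell were 17491 and 15074.

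Sarcomere genes rose together. Of 26 listed genes, 5 belong to the member rule and 11 fell below the filter on low counts. Of the 10 tested, 9 passed, all higher, read against 2.19% over all genes. Tnni1, Mylpf and Tnnt2 passed the filter only through the differentiating cells. The filter thus set their direction in advance, and the count is partly a description. The median log2 change of the 10 was 2.94, against 0.0016 over all 2643. Tnni1 (slow troponin I, ENSMUSG00000026418, GRCm38 chromosome 1, 135779434 to 135810989) was at 0, 3.17, 8.74 and 5.45 CPM in progenitors and 393, 1033, 963 and 151 CPM in differentiating cells. Every library of differentiating cells lay above every library of progenitors. With 3 UMIs in all progenitors the summed ratio was 179, with an exact 95% counting interval of 60.8 to 870 (edgeR adjusted p 1.71e-07).

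Mylpf (ENSMUSG00000030672, chromosome 7, 127208890 to 127214298) was at 34.6, 6.34, 52.4 and 10.9 CPM in progenitors and 1266, 5734, 4552 and 179 CPM in differentiating cells, a log2 change of 6.95 ± 0.49 (SE) with an edgeR adjusted p of 5.94e-07. Tnnt2, the cardiac troponin T that embryonic skeletal muscle also makes, was at 8.66, 0, 26.2 and 5.45 CPM and then 292, 1303, 442 and 179 CPM. In both genes the level reached in differentiating cells was lowest in mutant 2. Tpm2 (beta-tropomyosin) rose by 3.06 ± 0.33, Myl4 (embryonic light chain) by 4.01 ± 0.46, Tnni2 by 2.82 ± 0.46, Neb (nebulin) by 1.98 ± 0.29, Mybpc1 by 1.70 ± 0.40 and Des by 1.06 ± 0.26 on the log2 scale. Mybpc1 and Des lost their calls without certain single libraries. Tpm1, alpha-tropomyosin, was at 797, 824, 900 and 545 CPM and then 1139, 1873, 1636 and 527 CPM, and it did not pass (adjusted p 0.0834).

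Several late genes had no UMIs in progenitors and fell below the filter on low counts with all 4 libraries in the fit. Of 164 listed genes, 14 had 0 UMIs in all 45 progenitors and more than 3 in differentiating cells, 5 of them sarcomere genes. Myog is among the 14, but its 0 was set by the definition of progenitors, and it was not below the filter. The share of all genes with this pattern was not counted, so the 14 are a description. Tnnc1 (slow troponin C) reached 431, 2546, 2065 and 18.8 CPM, at least 348-fold above the level of 3 UMIs summed over the progenitors. Acta1 (skeletal alpha-actin) reached 315, 1501, 1821 and 0 CPM, at least 248-fold. Mutant 2 was again lowest, and its differentiating cells held no Acta1 at all. The embryonic myosin Myh3 had 1 UMI in progenitors and stood at 288, 1267, 521 and 9.41 CPM in differentiating cells, a ratio of 449 (80.2 to 17800). These sums rest on few cells, since Tnnc1 was detected in 11, Acta1 in 10 and Myh3 in 15 of the 41 differentiating cells. Of the excitation-contraction list, 0 of 12 genes were tested, and its Sln (sarcolipin, a regulator of the calcium pump) had 0 UMIs in progenitors and 167 in differentiating cells, at least 68.0-fold.

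The fusion list holds 10 genes, of which 4 were tested and 3 rose, where 2.19% of all genes tested did. Of these, Mymx passed the filter on low counts only through the differentiating cells, which set its direction in advance. Mymx (ENSMUSG00000079471, chromosome 17, 45600971 to 45602102) was at 4.33, 3.17, 0 and 0 CPM in progenitors and 296, 438, 323 and 75.3 CPM in differentiating cells, a summed ratio of 128 (34.9 to 1061) with an edgeR adjusted p of 5.61e-07. Mymk (ENSMUSG00000009214, chromosome 2, 27061636 to 27072179) was at 0 in every progenitor sum and at 93.6, 258, 277 and 47.1 CPM in differentiating cells, at least 46.8-fold above the floor. Both genes thus separated the states in all 4 libraries. The adhesion molecules Ncam1 (log2 change 1.57 ± 0.33) and Jam3 (1.61 ± 0.34) rose with edgeR adjusted p-values of 0.0178 and 0.0208, though neither passed without control 2 or without mutant 1, nor Jam3 without control 1. Cdh15 (M-cadherin) was not tested and was higher in 4 of 4 libraries, at 39.0, 53.9, 52.4 and 38.2 CPM and then 161, 96.1, 125 and 56.5 CPM.

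At the membrane, Chrna1 (ENSMUSG00000027107, chromosome 2, 73563215 to 73580338), the alpha subunit of the muscle acetylcholine receptor, was at 39.0, 9.51, 52.4 and 10.9 CPM in progenitors and 146, 198, 191 and 122 CPM in differentiating cells (log2 change 2.78 ± 0.43, edgeR adjusted p 0.00179). It was the only one of 8 neuromuscular junction genes tested. Like Chrm3, Dlg2 and Rbm24 below, it passed the filter on low counts only through the differentiating cells, which set the direction in advance. Arpp21 and Spg21 below also needed the differentiating sums to pass it. The fetal gamma subunit Chrng and the anchoring protein Rapsn were untested and higher in 3 of 4 libraries, not in mutant 2. The muscarinic receptor gene Chrm3 (4.73 ± 0.50) and the scaffold gene Dlg2 (6.20 ± 0.43) rose too, Dlg2 from 5 UMIs in all progenitors to 311. Other genes among the 10 with the smallest p were Rbm24, an RNA-binding regulator of muscle splicing (2.89 ± 0.31), Arpp21 (2.67 ± 0.30) and Spg21 (2.62 ± 0.27). Of the metabolic and dystrophin complex lists 1 gene each was tested, the brain creatine kinase Ckb (1.57 ± 0.37) and delta-sarcoglycan Sgcd (1.65 ± 0.38), and both passed but not in 3 of the 4 fits without a library.

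**Figure D3:**
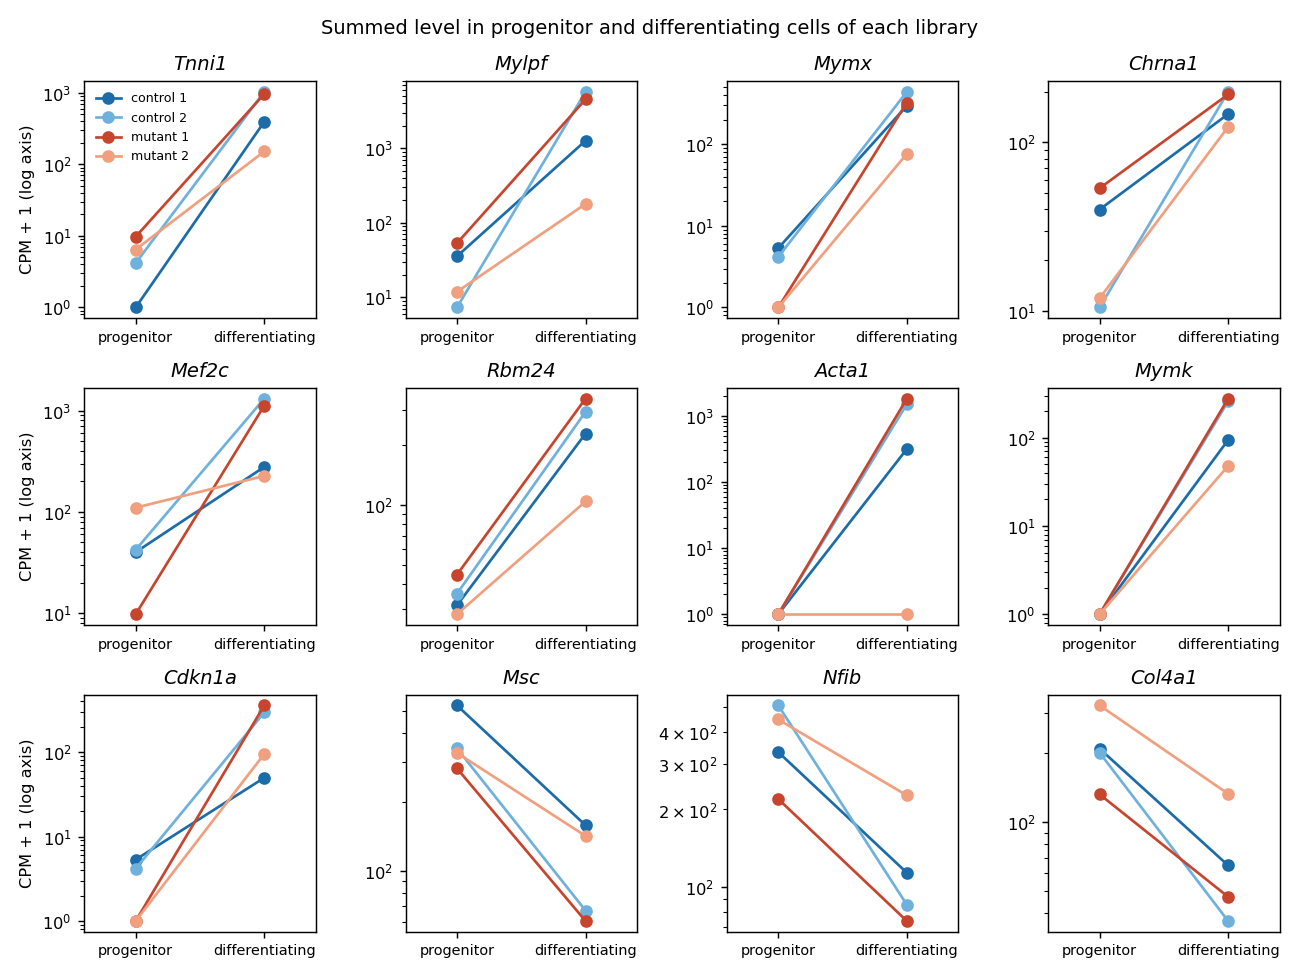
Summed level, CPM plus 1 on a log axis, of 12 genes in progenitor and differentiating cells, with 1 line per library. Tnni1, Mylpf, Mymx, Chrna1, Mef2c and Rbm24 rose and Msc, Nfib and Col4a1 fell in all 4 libraries, and Acta1, Mymk and Cdkn1a were not tested. The line of mutant 2 reaches the lowest differentiating level of Tnni1, Mylpf, Mymx, Mymk and Acta1.

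Among regulators, Mef2c (ENSMUSG00000005583, chromosome 13, 83504034 to 83667080), a MADS-box partner of the myogenic factors, rose from 39.0, 41.2, 8.74 and 109 CPM to 277, 1315, 1122 and 226 CPM (log2 change 3.68 ± 0.55, edgeR adjusted p 0.00137). Mef2c needed the differentiating sums to pass the filter on low counts. Mef2a rose by 1.30 ± 0.26 and Hes6, which promotes differentiation, by 1.10 ± 0.24, the first lost without either control and the second without any library but mutant 2. Msc (ENSMUSG00000025930, chromosome 1, 14753346 to 14755992) fell from 528, 342, 280 and 327 CPM to 157, 66.1, 59.4 and 141 CPM (log2 change -1.79 ± 0.24, edgeR adjusted p 0.00058). All 4 progenitor values of Msc lay above all 4 differentiating ones. Eya1, a transcriptional cofactor of early myogenesis, changed by -1.56 ± 0.37 and lost its call in all 3 fits that left out a library and could test it (not without control 1). In all, 8 of 21 specification genes were tested, 2 passed as higher and 2 as lower, where 2.19% and 0.681% of all genes tested did. Eya4, Pitx1 and Isl1 were among those that did not pass.

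The factors of the rule are given without a test, and the grouping itself fixes the direction of Myog, Pax7 and Myf5. Pax7 was at 78.0, 120, 87.4 and 81.7 CPM in progenitors and 22.5, 18.0, 46.2 and 18.8 CPM in differentiating cells. Myod1 was detected in 27 of 45 progenitors and 35 of 41 differentiating cells, and it rose from 60.6, 60.2, 201 and 81.7 CPM to 258, 258, 350 and 245 CPM.

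Notch signalling holds muscle progenitors undifferentiated. Of 18 listed Notch pathway and progenitor surface genes 7 were tested and 4 had an unadjusted p under 0.05 (12.9% over all genes). Of these, Hes6 alone passed after adjustment. Notch3 was at 95.3, 85.6, 61.2 and 81.7 CPM in progenitors and between 9.41 and 52.4 CPM in differentiating cells, lower in 4 of 4 libraries with an edgeR adjusted p of 0.104. Its target Heyl, untested, was at 26.0, 12.7, 0 and 10.9 CPM and then 7.49, 0, 0 and 0 CPM. Met, the receptor for hepatocyte growth factor, had a log2 difference of -0.87 ± 0.37 (edgeR adjusted p 0.320), lower in 4 of 4 libraries. Megf10 had one of 0.97 ± 0.31 (edgeR adjusted p 0.136), higher in 4 of 4. Mstn (myostatin), a negative regulator of muscle mass, had 0 UMIs in progenitors and 20 in differentiating cells.

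Among the other genes of smallest p that fell, Nfib and Nfia, transcription factors of the nuclear factor I family, changed by -1.60 ± 0.25 and -1.64 ± 0.32, and the basement membrane collagen Col4a1 by -1.64 ± 0.28. The proteoglycan Gpc3 (-1.25 ± 0.29), the secreted Cthrc1 (-1.99 ± 0.46), Map2, Wwox, the histone gene Hist1h2ae and Ptma (-0.85 ± 0.17) also fell. Wwox passed the filter on low counts only through the progenitors, which set its direction in advance. Col4a1, Nfia, Hist1h2ae, Map2 and Cthrc1 also needed the progenitor sums to pass it. Mesenchymal markers summed to 502, 811, 288 and 779 CPM in progenitors and 461, 60.0, 139 and 856 CPM in differentiating cells, and 0 of the 3 tested passed. The part of mesenchymal RNA in these falls was not tested. With the 4 cells that bore markers of other types left out, 49 genes passed and Cthrc1 did not, while Nfib, Nfia, Col4a1 and Gpc3 did. That alternative was chosen after seeing the data.

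Many of the muscle cells held cell cycle transcripts. A cell was counted as cycling with at least 2 UMIs over 15 cell cycle genes after thinning to 2000 UMIs, which left out 1 shallower cell of mutant 1. The shares were 66.7%, 74.1%, 46.2% and 94.4% of the muscle cells, against 31.5%, 30.6%, 28.7% and 30.0% of the other cells of the same libraries. In progenitors 10 of 12, 14 of 16, 4 of 5 and 11 of 12 cells were cycling, and in differentiating cells 9 of 17, 5 of 10, 2 of 8 and 5 of 5. Without thinning the muscle shares were 90.0%, 88.9%, 85.7% and 100% and those of other cells 50.2% to 57.3%. Muscle cells were chosen on full counts by several detected genes, which favours deeper cells. The part of that choice in their contrast with other cells was not tested. Controls and mutants overlapped, with means of 70.4% ± 5.24 and 70.3% ± 34.1 (SD, n = 2 each) and an exact permutation p of 1.00. Both the highest and the lowest share were mutant libraries.

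Of the 15 cell cycle genes, 14 were tested between states and 0 passed, with a median log2 change of -0.73. An unadjusted edgeR p under 0.05 was held by 5, where 12.9% of all genes tested held one. Summed over the list, progenitors were nearly even at 2837, 3036, 3103 and 3008 CPM. Differentiating cells were at 2146, 522 and 1003 CPM in the first 3 libraries and at 4677 CPM in mutant 2. Mki67, a marker of dividing cells, shows the same split: 82.3, 209, 149 and 229 CPM in progenitors and 105, 6.00, 19.8 and 668 CPM in differentiating cells. The differentiating cells of mutant 2 also had the lowest sarcomere sum, 4339 CPM, where the other libraries reached 12367, 36298 and 28338 CPM. That sum rests on 5 cells, 2 of which were among the highest doublet scores of the library. Mutant 2 was then left out because of the values just given, so the counts of that fit are a description and not an independent test. Without mutant 2, 5 of 15 tested cell cycle genes passed, all lower, where 1.80% of all 3049 genes did. In the same fit all 14 tested sarcomere genes passed, all higher, where 4.82% of all genes did. Some of these, Acta1, Myh3 and Tnnc1 among them, passed the filter on low counts only through the differentiating cells. In the fits without control 1, without control 2 and without mutant 1, 0 of 14, 0 of 14 and 0 of 15 tested cell cycle genes passed. Sarcomere genes passed in those fits too, 8 of 10, 7 of 10 and 7 of 10, all higher.

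**Figure D4:**
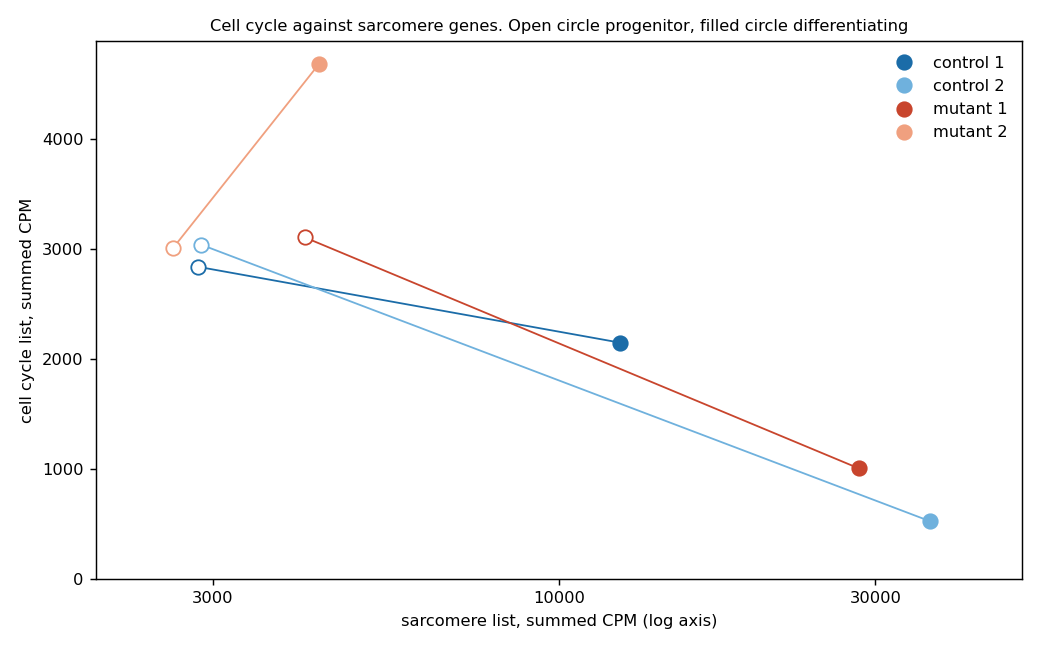
Summed CPM of the 15 cell cycle genes against summed CPM of the 26 sarcomere genes (log axis), with 1 line per library from progenitor (open circle) to differentiating cells (filled circle). In control 1, control 2 and mutant 1 the line falls from between 2837 and 3103 CPM to 2146, 522 and 1003 CPM, whereas in mutant 2 it goes up to 4677 CPM.

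Of 7 genes of cell cycle exit, 3 were tested and 2 passed, both higher, where 2.19% of all genes tested did. Cdkn1c (p57), an inhibitor of cyclin-dependent kinases, was at 2533, 2764, 3618 and 2436 CPM in progenitors and 5614, 7818, 4381 and 3143 CPM in differentiating cells (log2 change 0.90 ± 0.20, edgeR adjusted p 0.0270, lost without control 1). The retinoblastoma gene Rb1 rose by 2.19 ± 0.48, from 21.7, 19.0, 35.0 and 59.9 CPM to 109, 204, 198 and 56.5 CPM. It was higher in 3 of 4 libraries, it needed the differentiating sums to pass the filter on low counts, and its call was lost without control 2 or mutant 1. Cdkn1a (p21), another such inhibitor, had 2 UMIs in all progenitors and was at 48.7, 294, 356 and 94.1 CPM in differentiating cells, a ratio of 76.9 (20.9 to 642), and it was not tested. Gadd45g did not pass (adjusted p 0.0576). The inhibitors did not all go this way, since Cdkn2c had 17 UMIs in progenitors and 1 in differentiating cells, and Cdkn1b 21 and 5.

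Control and mutant muscle cells were compared last. No gene of 5517 tested passed (0.00%), with 111 at an unadjusted edgeR p under 0.05 (2.01%), and 0 passed by DESeq2. The libraries of the groups did not overlap for 28.3% of genes, 17.1% higher and 11.3% lower in mutants. The count of calls was 1 without control 1, 4 without control 2, 77 without mutant 1 and 21 without mutant 2. On data simulated for this comparison, 90% of 4-fold and 28% of 2-fold changes were recovered among 5600 genes tested. The simulation used a fixed dispersion of 0.05 for every gene and placed changes only in genes of higher mean count. Spread and counts in these libraries differ by gene, so changes of either size may have been missed.

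Levels of the targeted genes did not separate the groups in these cells, in which Sox10 was at 0. Yap1 (ENSMUSG00000053110, chromosome 9, 7931999 to 8004596) was at 43.5, 38.4, 41.4 and 38.5 CPM, from 23, 19, 11 and 12 UMIs (log2 change -0.09 ± 0.42, edgeR adjusted p 1.00). Wwtr1 (ENSMUSG00000027803, chromosome 3, 57455649 to 57575910) was at 66.1, 101, 97.8 and 57.8 CPM (-0.16 ± 0.39). The groups overlapped in both. Counts from the 3-prime end include messages from a recombined allele, and recombination was not measured here.

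Of 17 Hippo pathway genes 12 were tested and 0 passed, with a median log2 change of -0.41 against -0.001 over all 5517 genes. An unadjusted edgeR p under 0.05 was held by 3, where 2.01% of all genes tested held one. Ankrd1 (ENSMUSG00000024803, chromosome 19, 36111961 to 36120099), an ankyrin-repeat gene and a common readout of YAP and TAZ, was at 34.0, 52.5, 7.52 and 12.8 CPM, from 18, 26, 2 and 4 UMIs. Both mutants lay below both controls, as they did for 11.3% of all genes tested (log2 change -2.09 ± 0.59, edgeR adjusted p 1.00, unadjusted p 0.00521). Vgll2, a TEAD cofactor of skeletal muscle, was at 47.2, 44.5, 22.6 and 12.8 CPM (-1.43 ± 0.52), and Vgll3 at 47.2, 30.3, 0 and 19.3 CPM (-1.96 ± 0.79). The other common readouts differed less: Amotl2 was at 52.9, 74.8, 52.6 and 35.3 CPM, and Ccn1 at 34.0, 82.9, 26.3 and 61.0 CPM overlapped. Tead1, which binds DNA for the coactivators, was at 193, 168, 150 and 141 CPM (-0.36 ± 0.27), and Tead2 overlapped.

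Hes1 (ENSMUSG00000022528, chromosome 16, 30064384 to 30067796), a target of Notch, was among the 5 genes with the smallest unadjusted p in the lower direction. It was at 257, 226, 109 and 135 CPM, lower in both mutants by a log2 change of -1.04 ± 0.27 (edgeR adjusted p 1.00, unadjusted p 0.00292), and it lay between -1.23 and -0.96 in the alternatives. Other Notch genes did not follow it as a group, with Hey1 at 13.2, 22.2, 30.1 and 41.7 CPM (higher in both mutants) and Notch3 at 69.9, 62.6, 37.6 and 54.6 CPM (lower in both). The remaining 4 of those genes were 2310039L15Rik, Olfr1369-ps1, Nrk (402, 491, 203 and 234 CPM) and Ppp1r15a, a stress phosphatase regulator. In the higher direction the 5 were Crip2, Igfbp4, Kdm5b, Gng11 and Lmo2. Crip2 stood at 20.8, 12.1, 56.4 and 122 CPM, and Gng11 at 35.9, 22.2, 37.6 and 173 CPM, highest in mutant 2, where the endothelial list summed to 212 CPM. With cells that bore markers of other types left out, the log2 change of Crip2 was 1.75 in place of 2.36. With the highest doublet scores removed it was 1.70, and that of Gng11 was 0.75 in place of 1.79. The first of these alternatives was chosen after seeing the data. The part of other cell types or doublets in either difference was not tested.

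Head muscle factors lay on either side. Tbx1 was at 49.1, 20.2, 60.2 and 116 CPM (1.27 ± 0.47), higher in both mutants, and Msc at 325, 249, 154 and 241 CPM (-0.60 ± 0.29) was lower in both. Neither passed, and both have an edgeR adjusted p of 1.00. The sarcomere list had 22 tested genes with 0 passed (0 at an unadjusted p under 0.05) and a median of -0.19. Its summed level was 7654, 14088, 17926 and 3184 CPM, with both controls between the mutants. Myog, given for the groups, was at 486, 558, 872 and 212 CPM. Dag1 (dystroglycan, the laminin receptor of the muscle membrane) was at 51.0, 46.5, 30.1 and 16.0 CPM (-1.15 ± 0.50, unadjusted p 0.0424).

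**Figure D5:**
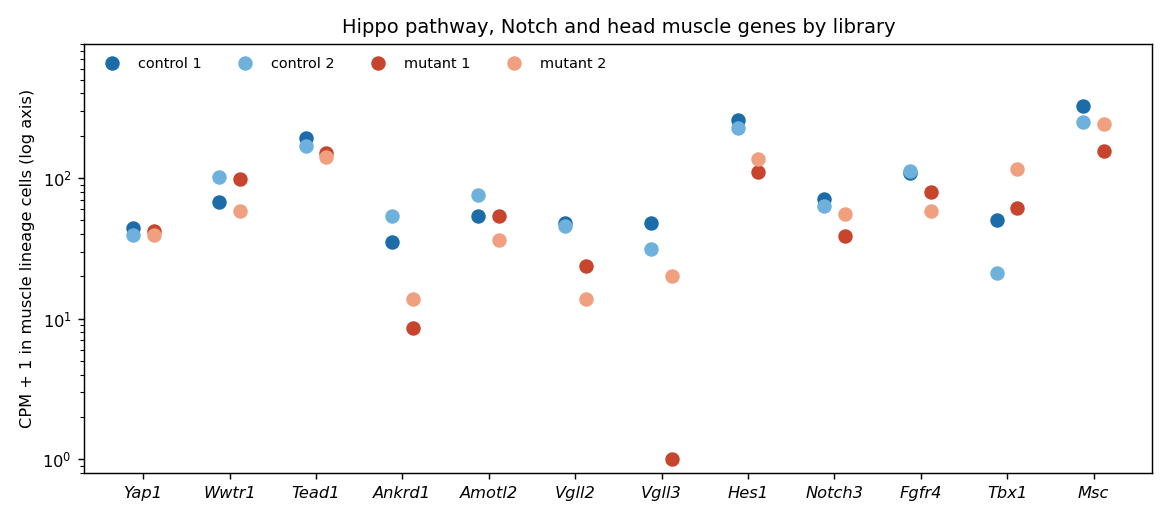
Level of 12 Hippo, Notch and head muscle genes in the muscle lineage cells of each library, CPM plus 1 on a log axis. Control points are on the left and mutant points on the right of each gene. Yap1 lies between 38.4 and 43.5 CPM in all 4 libraries, and Ankrd1, Vgll2, Vgll3 and Hes1 lie lower in both mutants, none past the threshold.

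Genes beside Sox10 on chromosome 15 were also read in the muscle cells. Eif3l, a translation initiation factor subunit (ENSMUSG00000033047, chromosome 15, 79075179 to 79094405), was at 134, 82.9, 229 and 196 CPM, higher in both mutants by a log2 change of 0.91 ± 0.31 (edgeR adjusted p 1.00). In the other cells it was at 92.5, 89.3, 183 and 190 CPM, a log2 change of 1.00 ± 0.082. Polr2f was at 283, 265, 365 and 453 CPM in muscle cells (0.52 ± 0.25). Neither gene passed in the muscle cells or in the other cells, where the edgeR adjusted p was 0.247 for Eif3l and 0.373 for Polr2f.

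The change from progenitor to differentiating cell was compared between genotypes by an interaction term. Of 2643 genes 0 passed (0.00%), with 75 at an unadjusted edgeR p under 0.05 (2.84%) and 35 passing without mutant 1. Cdkn1c had the smallest p of those whose rise was smaller in mutants, an interaction of -1.13 ± 0.22 on the log2 scale (adjusted p 0.946). Its 2 controls rose from 2533 and 2764 to 5614 and 7818 CPM, and the mutants from 3618 and 2436 to 4381 and 3143 CPM. In the other direction Lmnb1 (lamin B1) came first, with 277, 231, 149 and 229 CPM in progenitors and 127, 108, 178 and 480 CPM in differentiating cells (1.71 ± 0.46, adjusted p 0.946). Genotype was not tested within states, because mutant 1 held 5 progenitors and 9 differentiating cells and mutant 2 held 5 differentiating cells, under the minimum of 10.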

How the data were processed

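Whole noses at embryonic day 14.5 were profiled as 4 droplet libraries with 3-prime chemistry, after papain dissociation and freezing, per the labels' protocols. Raw UMI counts were deposited as a matrix for each library, made by the authors with Cell Ranger, version 8.0.1 per the file headers and version 4, with Seurat 4.3.0 and build mm10, per the submitters' processing notes. The labels' protocols name 2 sequencing providers without assigning libraries, so a batch could not be tested, and a further sample they speak of was not analysed here. Libraries held 35887490, 20170229, 30040144 and 27646940 UMIs in the order control 1, control 2, mutant 1 and mutant 2, and their muscle cells 529263, 494823, 265980 and 311548.

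Members were found by the rule in the report. Scrublet (scanpy 1.11.5) marked 1, 4, 0 and 0 doublets automatically and so had not worked. As an alternative the top scores at 0.8% per 1000 barcodes were removed. Counts were summed per library, or per library and state, and the sums tested by the quasi-likelihood method of edgeR 4.0.16 in R 4.3.3, with filterByExpr and TMM, Benjamini-Hochberg over all genes tested, threshold 0.05. CPM are of the summed UMIs, without TMM. SE was taken from the log2 change and the square root of F, and the log2 change includes a small prior count. On simulated data for the state comparison, 98% of 4-fold and 72% of 2-fold changes were recovered among 2732 genes. Both simulations used a fixed dispersion of 0.05 and changed only genes of higher mean count, so recovery in the real counts may be lower. DESeq2 1.42.0, other size factors, filters, rules and left-out libraries were alternatives.

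Named genes are those of the 22 lists or the member rule, and the 10 called genes of smallest p per direction that moved alike in every library, or, with under 5 calls, the 5 of smallest p. Members, lists and tests were chosen with earlier results of these data known, including the lower muscle share of the mutants. Positions are from GENCODE M21 (32158 of 32285 features matched by identifier) and promoters from RefSeq on GRCm38.p6.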

Additional observations from a re-analysis of the deposited data

How the results depend on the processing

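With few cells, counts of calls were the least stable values. For genotype in all muscle cells the count went from 0 to 27 with no filter on low counts, to 1 with equal numbers of cells per state and to between 1 and 77 with 1 library left out, and stayed at 0 in the remaining alternatives. With the replicate number as a block it was 0, with 118 genes at an unadjusted edgeR p under 0.05. Same-numbered libraries share only a number, and their deviations correlated at -0.07. For differentiating against progenitor cells the 76 calls became 337 with no filter, 9 of 286 tested after thinning (5 shared), 49 with cells bearing markers of other types left out (48 shared with the 76, chosen after seeing the data) and between 37 and 202 with 1 library left out. DESeq2 gave 61, of which 38 were shared. The interaction count went from 0 to 1 with no filter and to 35 without mutant 1 (range 0 to 35). The progenitor share difference of 1.56 points turned to -8.21 after thinning and ranged from -13.9 to 17.0 with 1 library left out, and the differentiating difference of -0.82 from -19.1 to 17.4. The cycling difference of -0.07 turned to 5.73 at 1 UMI and 3.41 without thinning, and ranged from -24.2 to 24.1. The muscle share difference ranged from -0.643 to -0.288 with 1 library left out, and was -0.227 after thinning. Thinning left fewer genes to test, and leaving out a library left fewer cells. The cause of these changes was not tested. Of 36 named state genes, 319 of the results under 12 alternatives kept their call and direction and 69 lost the call. None of these turned direction. In the remaining results the gene was not tested, and after thinning only 3 of the 36 genes were. Tests of genotype within states were not run under any alternative.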

Other observations

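Trp63, the basal epithelial p63 gene, was found in a few differentiating muscle cells. It had 0 UMIs in all 45 progenitors and 37 in differentiating cells, in 0 of 17, 2 of 10, 2 of 9 and 1 of 5 cells of control 1, control 2, mutant 1 and mutant 2. The 2 cells of control 2 held 30 of these UMIs, 22 of them in a single cell, and those of mutant 1 held 6. The keratinocyte genes Krt5 and Krt14 had 1 UMI each in differentiating cells, and Krt15 and Epcam had 0. The gene was singled out after its values were seen, was not tested and was not seen in control 1.

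Genes of dissociation stress are given as levels. Hspa1a had 0 UMIs in all 89 cells, and the 12 listed stress genes summed to 1993, 2172, 1993 and 2436 CPM in muscle cells against 3158, 3531, 3002 and 3620 CPM in the other cells. Most of the sum in muscle cells was the constitutive chaperone Hspa8, at 1576, 1378, 1617 and 1608 CPM, which stood at 833 to 951 CPM in the other cells. The immediate early gene Fos stood at 45.3, 220, 33.8 and 228 CPM in muscle cells, so that each group held 1 low and 1 high library. Erbb3, listed as a neural crest and glial gene, was detected in 49 of the 89 muscle cells, at 45.3, 64.7, 78.9 and 44.9 CPM, while Sox10 was at 0.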
